A study of Mus musculus with 2 samples.

Results

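The 10 genes described here encode proteins of the early antiviral response: Ifit1, Ifit2, Ifit3, Ifit3b, Rsad2, Cmpk2, Isg15, Isg20, Usp18 and Herc6. They were taken by gene symbol from the 55536 annotated genes of the deposited tables, and all 10 symbols matched. The match uses no measured value, but the genes and the comparison lists were chosen with earlier results of these data known. The RNA came from primary macrophages of C57BL/6J mice, grown from bone marrow, treated with Lipid A at 100 ng/ml for 75 min and fractionated so that the cytosolic part was kept. Lipid A is the part of bacterial lipopolysaccharide that activates Toll-like receptor 4 (TLR4). Ribosomal RNA was depleted from 1 µg of RNA per library, and total RNA was sequenced. There was 1 group with 2 libraries, which the labels number as biological replicates 1 and 2. Both carry the same donor identifier, sex and age were not collected, and nothing states whether separate animals or cultures were used, so the spread between the libraries may be technical. Unstimulated cells and other times were not analysed here, so no induction can be given, and no test between groups exists.

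Type I interferon is made by macrophages after TLR4 signals through the adaptor TRIF. Interferon then acts on its receptor, and transcription factors activated from the receptor bind interferon-stimulated response elements in promoters. Several of these antiviral genes can also be switched on directly by the transcription factor IRF3, before interferon has been made and has acted. The IFIT proteins bind foreign RNA, viperin and CMPK2 act on nucleotides, ISG15 is a small protein that is attached to other proteins, and ISG20 degrades RNA.

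The libraries held 55596625 counts in replicate 1 and 50157146 in replicate 2 over all genes. All 10 macrophage markers, among them Lyz2, Cd68, Mpeg1 and Cd14, reached a mean of 1 TPM, a level per transcript length scaled to the same sum in each library, with sums of 6086 TPM in replicate 1 and 6472 TPM in replicate 2. None of the 4 T cell, 4 B cell or 5 stromal and endothelial markers did. Of 6 neutrophil markers 3 reached 1 TPM, with S100a9 at 17.1 and 17.4 TPM in replicates 1 and 2 and Ly6g at 0 counts in both. Of 6 plasmacytoid dendritic cell markers only Tcf4 did, and Siglech, a defining marker of these strong interferon producers, had 0.19 and 0.40 TPM in replicates 1 and 2. RNAs known to stay in the nucleus had the widest median difference between the libraries of the lists compared: Malat1 had 158 TPM in replicate 1 and 799 TPM in replicate 2, and Neat1 14.8 and 64.6 TPM in the same order. In bulk RNA, fewer cells expressing a gene and less RNA per cell cannot be told apart.

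The stretches before the transcript starts are shown first, because 5 of the 10 genes carry the core of the interferon-stimulated response element there. RefSeq start windows on GRCm38.p6, from 250 bases before to 50 bases after a start, were at hand for 9 of the genes, in 12 windows, and Usp18 was not among them. The core was searched as GAAANNGAAA on both strands. The lines below give the 200 bases before the start, 5′ to 3′ along the gene's strand, with each match in capitals, and a match on the opposite strand shows there as its reverse complement.
Ifit1 (chr19:34640689-34640888, plus strand): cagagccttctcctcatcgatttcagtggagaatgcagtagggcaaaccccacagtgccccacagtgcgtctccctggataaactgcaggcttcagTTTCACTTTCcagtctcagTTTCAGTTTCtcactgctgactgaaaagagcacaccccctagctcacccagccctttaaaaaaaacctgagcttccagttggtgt
Ifit3 (chr19:34583329-34583528, plus strand): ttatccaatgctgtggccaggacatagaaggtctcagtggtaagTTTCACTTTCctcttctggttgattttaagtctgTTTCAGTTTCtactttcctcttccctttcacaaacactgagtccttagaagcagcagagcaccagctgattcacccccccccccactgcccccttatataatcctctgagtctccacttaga
Ifit3b (chr19:34607757-34607956, plus strand): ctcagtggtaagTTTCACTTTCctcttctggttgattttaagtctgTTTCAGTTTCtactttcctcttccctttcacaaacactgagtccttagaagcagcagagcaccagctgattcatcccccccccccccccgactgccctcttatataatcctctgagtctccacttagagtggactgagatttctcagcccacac
Rsad2 (chr12:26456453-26456652, minus strand): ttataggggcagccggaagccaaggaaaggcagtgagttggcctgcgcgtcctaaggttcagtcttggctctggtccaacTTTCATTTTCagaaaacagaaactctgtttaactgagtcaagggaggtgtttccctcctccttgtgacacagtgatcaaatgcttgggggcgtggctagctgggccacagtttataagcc
Isg15 (chr4:156200819-156201018, minus strand): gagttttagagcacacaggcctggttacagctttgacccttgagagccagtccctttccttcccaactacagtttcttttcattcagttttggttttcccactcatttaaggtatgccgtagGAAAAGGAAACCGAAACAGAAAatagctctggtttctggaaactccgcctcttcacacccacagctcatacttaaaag

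Ifit1, Ifit3 and Ifit3b each held a pair of matches, and in all 3 genes the matched letters were GAAAGTGAAA and, nearer the start, GAAACTGAAA. They lay at -104 to -95 and -85 to -76 in Ifit1, at -156 to -147 and -122 to -113 in Ifit3, and at -188 to -179 and -154 to -145 in Ifit3b, counted so that -1 is the last base before the start. Rsad2 held 1 match, GAAAATGAAA, at -120 to -111. Isg15 held a run of 3 overlapping matches on its own strand, GAAAAGGAAA, GAAACCGAAA and GAAACAGAAA, between -78 and -57. No match lay in the windows of Ifit2, Cmpk2, Isg20 or Herc6, which says only that these letters are not in those windows.

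For scale, the core was found in 3.44% of all 32851 windows and in 3.99% of the 27025 genes that have one. It was found in 19 of 34 other interferon-stimulated genes with a window. In the list of lipid A-induced genes not thought to need interferon, such as Tnf and Cxcl2, it was found in 0 of 15 with a window. A form of the NF-kB site, GGGNNNTTCC, was found in Ifit2 and Isg20, 2 of the 9 genes, against 6.31% of all genes, 7 of the 34 other interferon-stimulated genes and 4 of the 15 lipid A-induced genes. The TATA box letters TATAAA were found in Rsad2, on the opposite strand at -10 to -5, 1 of the 9 genes, against 15.7% of all genes, 8 of the 34 and 7 of the 15. These are matches of letters, and binding was not measured.

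**Figure D1:**
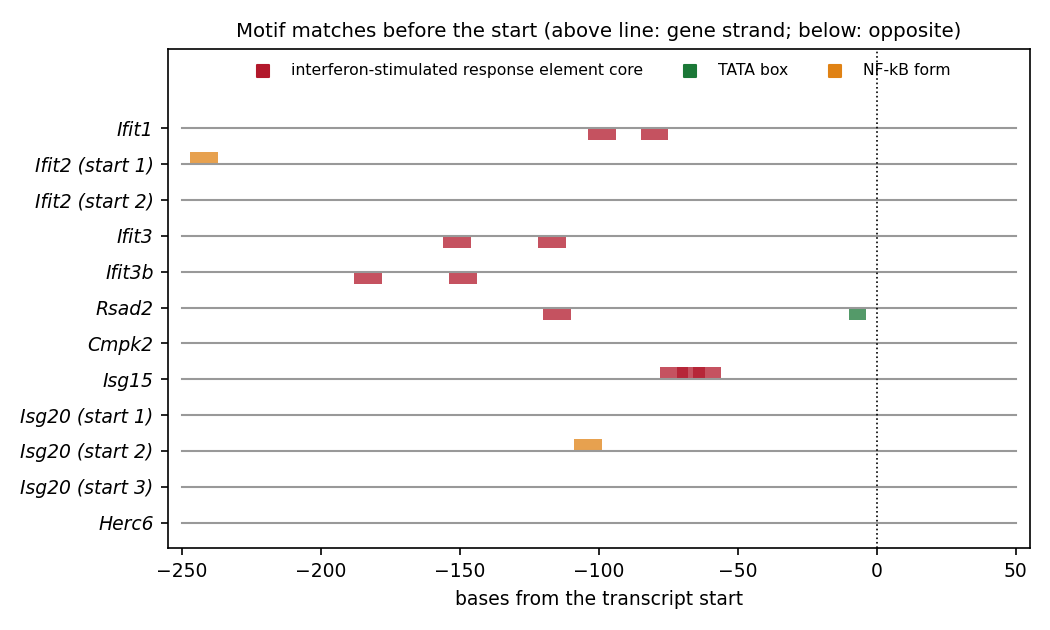
Positions of motif matches in the 12 RefSeq windows of 9 genes, with bases from the transcript start on the horizontal axis and 1 line per window. Boxes above a line are on the gene's strand and boxes below it on the opposite strand; red boxes, the response element core, stand before the starts of Ifit1, Ifit3, Ifit3b, Rsad2 and Isg15.

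All 10 genes were detected at 1 TPM or more in both libraries in the first quantification. Together they held 846 TPM in replicate 1 and 353 TPM in replicate 2, and 263467 and 88841 counts in the same order. Levels between genes are compared in TPM, since counts grow with transcript length. The 10 levels had a median of 54.6 TPM in replicate 1, against 24.7 TPM in replicate 2. Nuclear-encoded protein-coding genes took only 21.6% of TPM in replicate 1 and 21.9% in replicate 2, so levels on a scale of coding genes alone would be several times higher in both.

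Rsad2, which encodes viperin, the enzyme that turns CTP into a chain-terminating nucleotide, was the most abundant of the 10. It had 347 TPM in replicate 1 and 131 TPM in replicate 2 (239 ± 152 TPM, SD, n = 2), which placed it at rank 122 of 22015 nuclear-encoded protein-coding genes by mean level. It made up 41.0% of the 10 genes' TPM in replicate 1 and 37.1% in replicate 2. Cmpk2, the mitochondrial nucleotide kinase gene next to it on chromosome 12, had 39.3 TPM in replicate 1 and 15.6 TPM in replicate 2 (27.5 ± 16.8 TPM, SD, n = 2). Rsad2 (mm10 chromosome 12, 26442746 to 26456452, minus strand) and Cmpk2 (26469204 to 26479837, plus strand) point away from each other, 12.8 kb apart. The level of Rsad2 over that of Cmpk2 was nearly the same in both libraries, 8.81 in replicate 1 and 8.41 in replicate 2.

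The 4 IFIT genes lie in a row on the plus strand of mm10 chromosome 19 within 99.3 kb, from Ifit2 (34550694 to 34576419) through Ifit3 (34583531 to 34588731) and Ifit3b (34607970 to 34613401) to Ifit1 (34640871 to 34650009). Ifit2 had 108 TPM in replicate 1 and 48.6 TPM in replicate 2 (78.4 ± 42.2 TPM, SD, n = 2). Ifit1, whose protein binds RNA with a cap that lacks the host's methylation mark, had 116 TPM in replicate 1 and 33.7 TPM in replicate 2 (74.8 ± 58.1 TPM, SD, n = 2). Ifit3 had 69.8 TPM in replicate 1 and 38.2 TPM in replicate 2 (54.0 ± 22.4 TPM, SD, n = 2). These 3 genes changed places between the libraries: Ifit1 stood above Ifit2 and Ifit3 in replicate 1 and below both in replicate 2. The level of Ifit1 over that of Ifit2 was 1.07 in replicate 1 and 0.695 in replicate 2.

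Ifit3b was far less abundant than its copy Ifit3, at 10.8 TPM in replicate 1 and 4.93 TPM in replicate 2 (7.88 ± 4.17 TPM, SD, n = 2). The values of Ifit3 did not overlap with those of Ifit3b, and Ifit3 over Ifit3b was 6.45 in replicate 1 and 7.74 in replicate 2. The pair is nearly identical, so its reads could have been divided wrongly. The coding sequences matched at 1201 of 1212 bases (99.1%), and their translations at 398 of 403 residues, whereas every other pair of IFIT genes matched at 50.5% to 56.1% of alignment columns, gaps included. Of all stretches of 100 bases in the leading transcript, 31.7% of those of Ifit3 and 27.4% of those of Ifit3b occur in both genes. The 90 coding bases 199 to 288, the stretch of that length in which the pair differs most, show how few letters tell them apart; the 4 differing bases are in capitals (mm10, GENCODE M21 transcripts).
Ifit3 (chr19:34587254-34587343, plus strand): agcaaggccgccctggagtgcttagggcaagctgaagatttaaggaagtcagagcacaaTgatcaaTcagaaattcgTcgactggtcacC
Ifit3b (chr19:34611624-34611713, plus strand): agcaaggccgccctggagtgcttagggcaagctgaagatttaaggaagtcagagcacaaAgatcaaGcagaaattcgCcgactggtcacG

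The uncertainty the authors' quantifier attached to this division, a posterior SD, was 16.7 counts in replicate 1 and 10.7 counts in replicate 2 for both genes. That was 0.746% of the 2237 counts of Ifit3b in replicate 1 and 1.25% of its 858 counts in replicate 2. In the second quantification, made directly from the reads, Ifit3b had 2343 counts in replicate 1 and 937 in replicate 2, 1.05 and 1.09 times the first. The stretches before the starts of both genes were also alike, with 258 of 274 aligned columns identical. The IFIT relatives at the locus were nearly silent, Ifit1bl1 with 0.99 and 0.71 TPM and Ifit1bl2 with 0.06 and 0.03 TPM in replicates 1 and 2.

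Isg15 (mm10 chromosome 4, 156199424 to 156200818, minus strand) was the second most abundant of the 10, at 137 TPM in replicate 1 and 66.9 TPM in replicate 2 (102 ± 49.4 TPM, SD, n = 2). The genes for its handling were much lower. Herc6, the main ligase that attaches ISG15 in mouse (chromosome 6, 57581000 to 57664632, plus strand), had 9.09 TPM in replicate 1 and 7.02 TPM in replicate 2 (8.06 ± 1.46 TPM, SD, n = 2). Usp18, the protease that removes ISG15 and also restrains the interferon receptor (chromosome 6, 121245906 to 121270917, plus strand), had 7.0 TPM in replicate 1 and 5.89 TPM in replicate 2 (6.45 ± 0.785 TPM, SD, n = 2). Isg15 over Usp18 was 19.6 in replicate 1 and 11.4 in replicate 2. Annotated genes overlap Herc6 on both strands and Usp18 on the opposite strand, and which strand was counted is not stated in the sources. Over 20% of the 100-base stretches of Herc6 (20.9%) recur in Gm45193, which lies on its strand. That gene had 8.05 counts in replicate 1 and 0 in replicate 2, beside 3920 and 2671 counts of Herc6, and the others had at most 1 count. In the second quantification Gm45193 had 35.5 counts in replicate 1 and 0 in replicate 2, and the others at most 6 counts, beside 4248 and 3007 counts of Herc6.

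The enzymes upstream of Herc6 were present in both libraries. Ube2l6, the conjugating enzyme for ISG15, had 23.8 and 19.4 TPM in replicates 1 and 2, and Uba7, the activating enzyme, 9.59 and 9.62 TPM. Of 12 genes on the list of ISG15 conjugation and related enzymes, 10 reached 1 TPM on the mean of the libraries, with Trim25 highest at 26.0 and 26.5 TPM. Herc3 had 0.85 TPM in replicate 1 and 1.45 TPM in replicate 2. Ube2e2 (0.16 and 0.26 TPM) and Usp13 (0 counts in both) did not.

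Isg20, an exonuclease gene (chromosome 7, 78913424 to 78920396, plus strand), was the lowest of the 10. It had 2.62 TPM in replicate 1 and 1.63 TPM in replicate 2 (2.13 ± 0.7 TPM, SD, n = 2), from 256 and 131 counts. All 5 related nucleases on the list reached 1 TPM, and Rexo2 was the highest of them at 15.5 and 15.0 TPM in replicates 1 and 2. Of the 7 genes related to Cmpk2 in nucleotide handling all reached 1 TPM, led by the nucleotide-degrading Samhd1 at 88.5 and 80.3 TPM.

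By mean level the order was Rsad2, Isg15, Ifit2, Ifit1, Ifit3, Cmpk2, Herc6, Ifit3b, Usp18 and Isg20. Of the 9 neighbour pairs in that order, 7 had overlapping values over the libraries. The gaps without overlap lay between Cmpk2 and Herc6 and between Usp18 and Isg20. By overlap alone the order resolves into an abundant group of 6, a group of 3 between 4.93 and 10.8 TPM, and Isg20. Overlap takes no account of all 10 genes being higher in replicate 1. Within each library Rsad2 was first, Isg15 second, Cmpk2 sixth and Isg20 last.

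**Figure D2:**
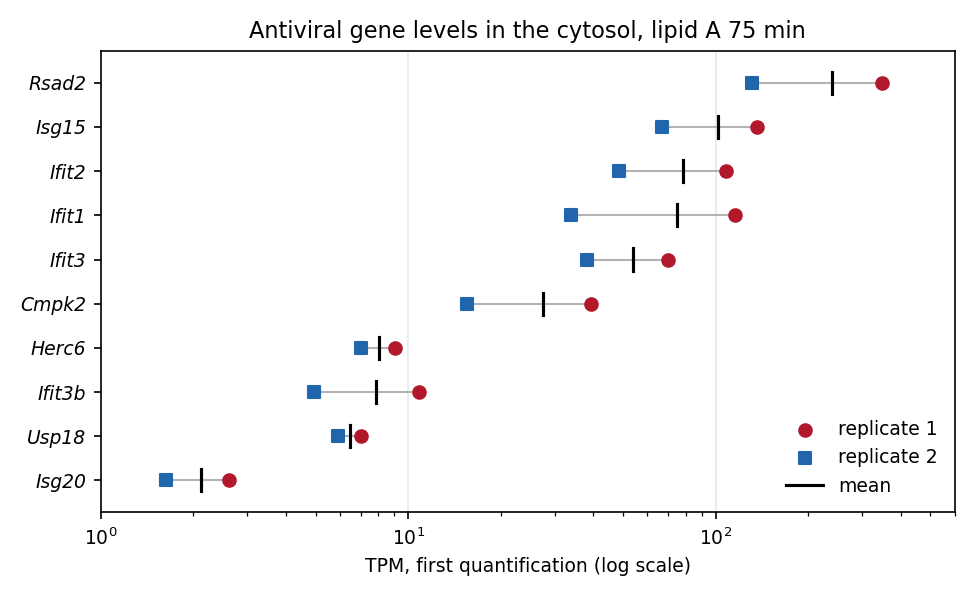
Level of each gene in TPM (horizontal log axis) in replicate 1 (red circles) and replicate 2 (blue squares), with the mean as a black bar. All 10 genes were higher in replicate 1. The values of Cmpk2 do not overlap with those of Herc6, nor those of Usp18 with those of Isg20, though values of Ifit3b lie between them.

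Every one of the 10 genes had a higher level in replicate 1 than in replicate 2, although both libraries carry the same label. The ratio was taken from counts scaled by edgeR's TMM method, with 0.5 counts added, and called at 2-fold or more where the mean count reached 100, as it did in all 10 genes. It was at least 2-fold in 6 of the 10, Ifit1, Rsad2, Cmpk2, Ifit2, Ifit3b and Isg15. Of all 10091 genes with that mean count 29 were that much higher in replicate 1, or 0.287%. With 1 library on each side no test is possible, and the intervals below cover counting error only. Because the 10 genes and the lists were chosen with earlier results known, these shares and the list medians below are descriptions only.

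Ifit1 had the highest ratio of the 10, 30630 scaled counts in replicate 1 and 8591 in replicate 2, or 3.57-fold (95% Clopper-Pearson interval 3.48 to 3.65). Rsad2 and Cmpk2 followed with 2.75-fold (2.72 to 2.78) and 2.65-fold (2.56 to 2.74), intervals that overlap. Ifit2 was 2.32-fold, Ifit3b 2.28-fold, Isg15 2.12-fold and Ifit3 1.90-fold higher in replicate 1. The low end held Isg20 at 1.71-fold (1.38 to 2.12), Herc6 at 1.28-fold and Usp18 at 1.26-fold (1.15 to 1.38). The median log2 ratio of the 10 was 1.13, against 0.03 over all 10091 genes, whose quartiles were -0.14 and 0.16. Ifit1 and Usp18, at log2 ratios of 1.83 and 0.33, mark the ends of a wide span within the 10 genes.

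**Figure D3:**
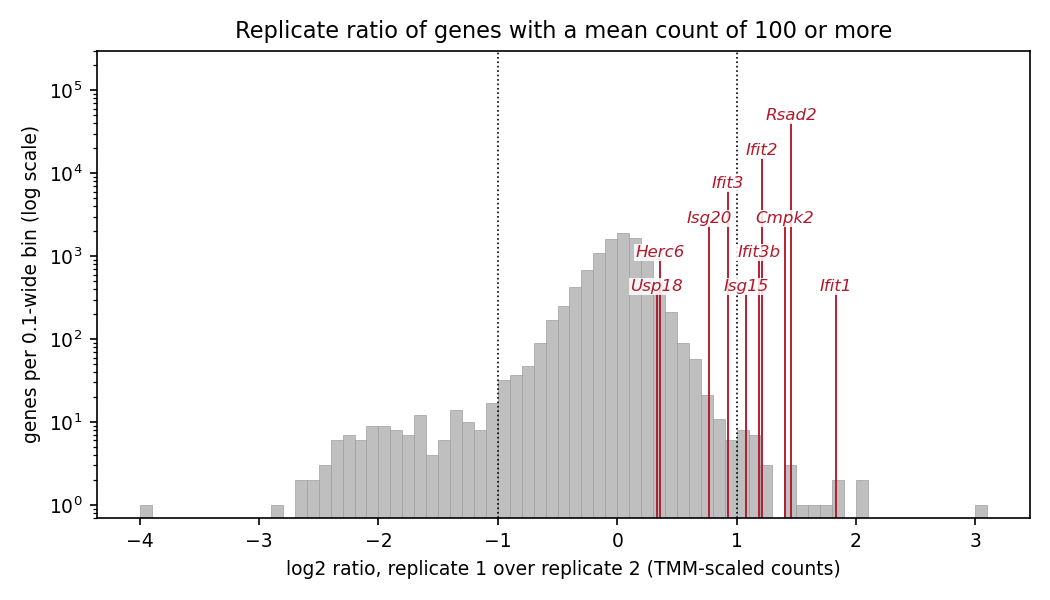
Distribution of the log2 ratio of replicate 1 over replicate 2 for 10091 genes (grey bars, number of genes per bin on a log axis), with the 10 antiviral genes as red lines of arbitrary height. Dotted lines mark 2-fold in either direction; 6 of the 10 lie right of the upper one, Herc6 and Usp18 lie on the shoulder of the distribution, and none lies left of 0.

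Replicate 1 was not higher in general. In the other direction 132 genes, or 1.31%, were at least 2-fold higher in replicate 2. Among them were all 4 listed nuclear-retained RNAs, with a median log2 ratio of -2.13, and the part of the nuclear RNA content in the antiviral genes' ratio was not tested. Of the 10 macrophage markers 1 was higher in replicate 1, with a median log2 ratio of -0.32, and of 8 reference genes 7 were, with a median of 0.17. The 18 other lipid A-induced genes, which lie downstream of the same receptor, had a median of 0.04 and ran from -0.30 in Ier3 to 0.64 in Ccl3. Tnf had 1338 TPM in replicate 1 and 1466 TPM in replicate 2, and none of the 18 reached 2-fold. This holds for the chosen list only. The cytokine gene Il6 and Peli1, a gene of Toll-like receptor signalling, were not on it and were past 2-fold, as given below.

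The median of the other interferon-stimulated genes lay between those of these lists and that of the 10 antiviral genes. Of 46 listed genes 44 had the mean count of 100, and 40 of the 44 were higher in replicate 1, with a median log2 ratio of 0.31. Only 3 reached 2-fold: the chemokine gene Cxcl10, with 349 TPM in replicate 1 and 84.1 TPM in replicate 2, the translation regulator Oasl1 (39.6 and 19.5 TPM in the same order) and the GTPase gene Mx2, annotated as a polymorphic pseudogene (5.48 and 2.53 TPM). The lowest of the list was Oas2, at 3.88 TPM in replicate 1 and 4.48 TPM in replicate 2. Its most abundant genes differed less than Cxcl10, with Ifitm3 at 268 TPM in replicate 1 and 191 TPM in replicate 2, and Ccl5 at 201 and 152 TPM. Cxcl9 and Ifi44l stayed below 1 TPM in both libraries.

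The interferon beta gene also differed between the libraries. Ifnb1 had 106 TPM in replicate 1 and 48.1 TPM in replicate 2, a log2 ratio of 1.19. The listed interferon alpha genes had few counts, with Ifna2 at 52 in replicate 1 and 8 in replicate 2, Ifna4 at 8 and 1, and Ifna1 at 5 and 2. The receptor and its signalling genes differed less: over the 16 listed induction and receptor genes with enough counts the median log2 ratio was 0.06, and Ifnb1 was the only one past 2-fold. Ifnar1 was lowest at -0.59 (16.1 TPM in replicate 1 and 25.6 TPM in replicate 2). The ISG15 enzymes (10 genes with enough counts, median log2 ratio 0.07), the nucleases (5 genes, 0.03) and the nucleotide enzymes (7 genes, 0.12) lay near the median of all genes, and none of them reached 2-fold. Lipa, a lysosomal lipase gene that neighbours the IFIT row, was lower in replicate 1, at 168 TPM against 250 TPM in replicate 2.

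**Figure D4:**
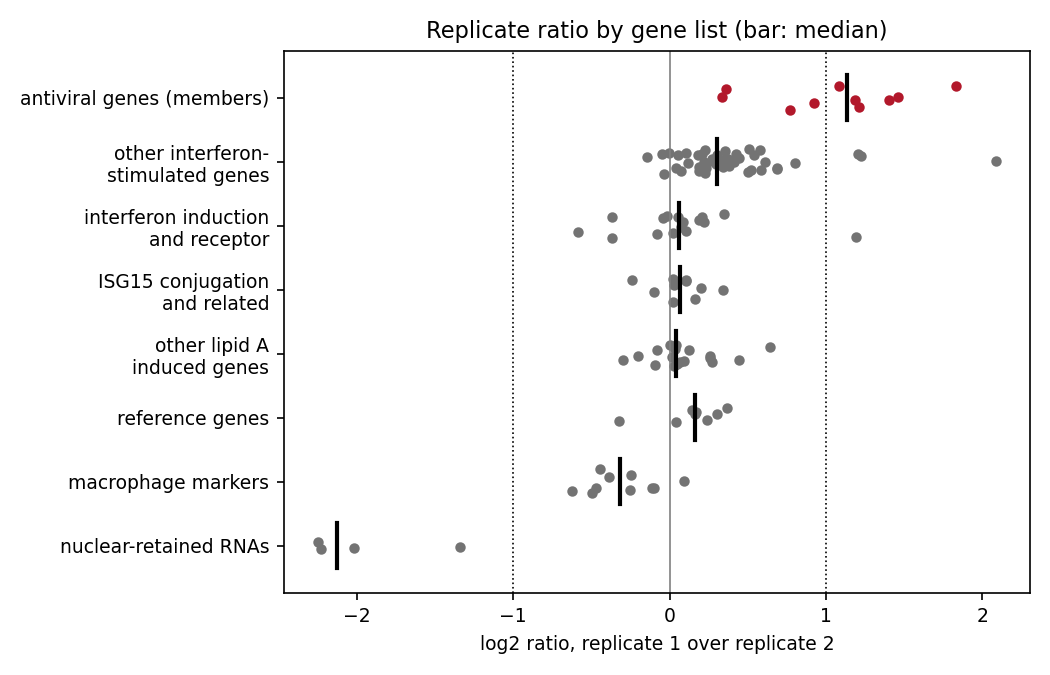
Log2 ratio of replicate 1 over replicate 2 in 8 lists, for genes whose mean count reached 100, 1 point per gene with random vertical scatter; black bars are list medians and dotted lines mark 2-fold. The median of the antiviral genes (red, 1.13) lies to the right of that of the other interferon-stimulated genes (0.31), though the lists overlap: Cxcl10 (2.09) lies right of all 10, and Usp18 (0.33) and Herc6 (0.36) lie near the other list's median, and the nuclear-retained RNAs (median -2.13) lie far to the left.

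The 6 other protein-coding genes whose ratio came nearest to the median of the 10 were Il6, Otud1, Rgs2, Peli1, Gm45062 and Ifnb1, within 0.06 of it on the log2 scale. Il6, a cytokine gene, had 9.00 TPM in replicate 1 and 3.95 TPM in replicate 2. Peli1, a ubiquitin ligase gene of Toll-like receptor signalling, had 41.8 and 20.5 TPM in the same order. The likeness rests on 2 libraries, that is on 1 ratio per gene.

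At transcript level the 10 genes had 29 annotated transcripts, 16 of them protein-coding, and 4 genes (Ifit1, Ifit3, Ifit3b and Isg15) had 1 only. The leading transcript was protein-coding in all 10 and was the same in both quantifications. It took 99.9% of Ifit2, 99.1% of Rsad2, 97.0% of Usp18, 91.9% of Cmpk2, 84.1% of Isg20 and 75.1% of Herc6, as the mean of the isoform percentages deposited with the first quantification. In the first quantification the second transcript of Herc6, Herc6-205 with a retained intron, took 14.7% in replicate 1 and 13.3% in replicate 2. The makeup of other genes differed in the second quantification. In replicate 2 the leading transcript took 83.25% of Rsad2, 80.68% of Cmpk2 and 65.34% of Isg20, against 98.51%, 88.79% and 78.31% in the first. In replicate 1 it took 95.43% of Rsad2 and 89.84% of Isg20, against 99.63% and 89.87%. Ifit2 and Usp18 had 99.73% and 92.62% in replicate 2, against 99.77% and 95.64%. The makeup of Herc6 also differed in the second quantification. There Herc6-201 took 55.5% in replicate 1 and 48.5% in replicate 2, Herc6-205 21.9% and 16.1%, and a nonsense-mediated decay form 16.5% and 26.5%, in the same order.

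In Rsad2 the higher level in replicate 1 sat in the coding transcript, and in Cmpk2 it was larger there than in the other forms. Rsad2-201 had 142856 counts in replicate 1 and 44896 in replicate 2, a log2 ratio of 1.48. The other transcripts of Rsad2, nearly all of it the nonsense-mediated decay form Rsad2-202, had 564 counts in replicate 1 and 698 in replicate 2, a log2 ratio of -0.50. In Cmpk2 the coding form had a log2 ratio of 1.49, and the forms with a retained intron or processed type 628 counts in replicate 1 and 444 in replicate 2, a ratio of 0.31. In Herc6 the values were 0.40 for the coding form and -0.02 for the others. Such transcripts thus took a smaller part of the gene's counts in replicate 1. The part was 0.393% against 1.53% in replicate 2 for Rsad2 and 4.63% against 9.92% for Cmpk2. These are shares of counts, unlike the TPM shares given above. The share of counts itself depended on the quantification: in the second it was 1.52% in replicate 1 and 7.36% in replicate 2 for Rsad2, and 5.24% and 10.8% for Cmpk2.

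The same direction was common. Over 3964 genes with at least 20 counts on average in this class, its log2 ratio was below that of the gene's other transcripts in 2781 (70.2%), with a median difference of -0.38. The difference was -1.98 in Rsad2, -1.18 in Cmpk2 and -0.42 in Herc6. The second quantification gave -2.37, -1.13 and -0.40 for these genes and a median of -0.55 over 4910 genes. Isg20 and Usp18 fell short of 20 counts and were left out of this comparison. The posterior SD of Rsad2-202 was 45.6 counts in replicate 1 and 52.5 in replicate 2, beside its 562 and 695 counts.

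**Figure D5:**
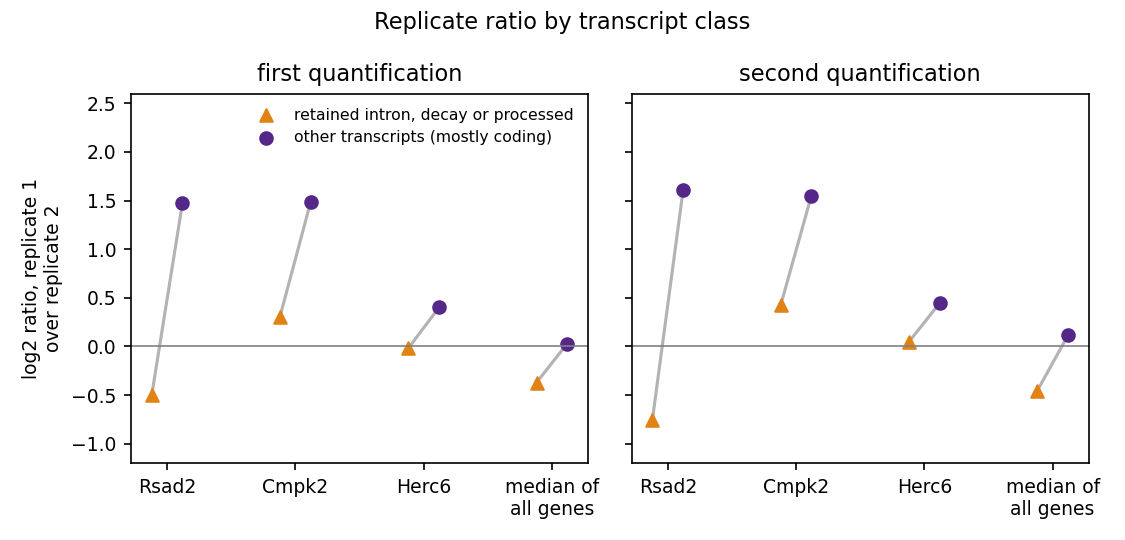
Log2 ratio of replicate 1 over replicate 2 for transcripts of the retained intron, nonsense-mediated decay or processed types (orange triangles) and for the other, mostly coding transcripts of the same gene (purple circles), in the first (left) and second (right) quantification. In Rsad2 the classes stand at -0.50 and 1.48 in the first quantification, and the medians over all genes at -0.37 and 0.03.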

How the data were processed

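RNA of 2 libraries of 1 group was quantified per library by the authors. Per the deposited readme files, all tables used mm10 and annotation M21; the first quantification came from transcriptome alignments and the second directly from the reads. The sources do not name the aligner, the quantifiers or their versions. Expected counts are the authors' estimated counts per gene or transcript, not normalized, per the file headers. The TPM values and isoform percentages (percent of a gene's TPM) were deposited by the authors. Entries that are no annotated gene (26345, at 0.251% and 0.204% of the count in replicates 1 and 2) were left out.

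After rounding the expected counts, TMM factors were computed in edgeR 4.0.16 (R 4.3.3) from genes averaging at least 10 counts. The ratio step was tested on simulated data with known changes. Counting intervals are exact Clopper-Pearson at 95%. Sequences before starts came from RefSeq, GRCm38.p6, transcripts from GENCODE M21. Named were the 10 genes, from each list the most abundant, undetected and extreme ones, and the 6 genes nearest in ratio. Members and lists were chosen with earlier results of these data known. Tnf, Cxcl2, Lipa and Ifit1bl2 illustrate their lists. The alternatives tried were other scalings, quantification, added counts, filters, thresholds and leaving out each replicate. DESeq2 1.42.0 gave size factors only.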

Additional observations from a re-analysis of the deposited data

How the results depend on the processing

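Other scalings (DESeq2 size factors, total counts, the TPM ratio), the second quantification and other added counts were tried. Under these, 6 or 7 of the 10 genes were at 2-fold or more, and the median log2 ratio lay between 1.08 and 1.19. Lower count minimums could not change the 6 genes reported, since all 10 had a mean count of 100 or more. They change only the share of all genes. The share of all genes past 2-fold was 0.278% to 0.416% over the scalings and the second quantification, 0.971% at a mean count of 10 and 3.27% with no minimum. All 60 recomputed ratios of single genes were positive, from 0.25 to 1.89, and 15 of them lay outside the counting interval of the reported value. At 1.5-fold 8 genes passed, against 1.32% of all genes, and at 3-fold 1 gene did, against 0.0694%. Without the 3 genes that share over 20% of their 100-base stretches with another gene (Ifit3, Ifit3b and Herc6), an alternative chosen after seeing the data, the median log2 ratio was 1.21 and 5 genes were past 2-fold. With coding transcripts only, also added later, it was 1.13. At a threshold of 10 TPM in place of 1 TPM, 6 genes were counted. The median level of 40.7 TPM became 188 TPM when rescaled over nuclear-encoded protein-coding genes and 19 TPM in the second quantification. Leaving out each replicate in turn, it ranged from 24.7 to 54.6 TPM in the first quantification, where all 10 genes reached 1 TPM. The leading transcripts of all 6 genes with several transcripts were then the same in both quantifications. The 4 genes with 1 transcript could not differ. In the second quantification Isg20 had 1.37 TPM in replicate 1 but only 0.725 TPM in replicate 2. Coding genes of the nucleus made up less of that scale than of the first, 11.1% (replicate 1) and 8.6% (replicate 2). Levels that were not rescaled, the median of 19 TPM among them, are therefore not directly comparable between the quantifications. After rescaling over those coding genes, Isg20 stood at 12.3 and 8.44 TPM in replicates 1 and 2. The first quantification gave 12.1 and 7.46 TPM on that scale. No paired analysis was possible because there is 1 group. With 2 libraries the spread of a level is itself poorly known.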

Other observations

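Of the 29 genes at least 2-fold higher in replicate 1, 23 were also 2-fold higher there in the second quantification. Only 5 of the 29 had a mean level of 100 TPM or more: Rsad2 and Isg15, Cxcl10, the stress-response gene Ppp1r15a (525 TPM in replicate 1 and 256 TPM in replicate 2) and the small nuclear RNA Gm24497. The last had a log2 ratio of 1.76 in the first quantification and -1.58 in the second, the opposite direction. Of the 14 genes at 10 TPM or more, 5 were among the 10 antiviral genes. Another was Rgs2, a regulator of G-protein signalling, with 25.6 TPM in replicate 1 and 12.5 TPM in replicate 2. Zbed6, with the highest ratio of all at a log2 ratio of 3.01, had only 0.44 TPM in replicate 1 and 0.06 TPM in replicate 2. Ppp1r15a, Zbed6 and Gm24497 were chosen after their values were seen.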
